A study of Mus musculus with 11 samples.

Results

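The comparison asked what the activin transgene changed in fibroblasts of healing skin. Fibroblasts of 5-day wounds (5dw) from activin-transgenic (Act) mice were set against those of their wild-type (WT) littermates, gene by gene. Act mice overexpress activin in keratinocytes under the keratin 14 promoter, so the sequenced fibroblasts were not meant to carry an active transgene themselves. Fibroblasts of the whole skin or wound sample were sorted, and according to the paper those lying deeper met less activin. The paper therefore regards the weak effect of activin as most likely underestimated. Members were the genes with an RPKM (reads divided by gene length and by the library's mapped total) of at least 1 in at least 2 of the 5 wound libraries, and 10240 of the 47643 gene symbols in the table met this rule. The 5 wound libraries were WT 5dw replicates 1, 2 and 3 and Act 5dw replicates 1 and 3, out of 11 libraries in the series. The replicate of Act 5dw numbered 2 was left out by the study's quality control and was not analysed here. The 3 WT and 3 Act libraries from unwounded normal skin (NS) served to estimate the spread and to show the same genes without a wound.

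All mice were on a mixed background of 50% CD-1 and 50% C57Bl/6, were 9 to 12 weeks old and, per the study's methods, female. Wounds were full-thickness excisions on the back, taken 5 days after injury. Cells were sorted as live, CD140a (PDGFRα)-positive and CD45-negative, with CD3, CD11b and F4/80 as further markers of cells to remove. Each library held the material of 3 pooled mice, so the p-values measure the spread between pools and not between single animals.

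Activin A is a dimer of the inhibin βA subunit encoded by Inhba and belongs to the TGF-β superfamily. It binds type II and type I receptor kinases, which phosphorylate SMAD2 and SMAD3 and thereby change transcription, and it is held in check by follistatin and related binding proteins. In skin it is induced upon wounding, and it is known for promoting granulation tissue and scar matrix formation.

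Fibroblast markers were at similar sums in both genotypes. The summed RPKM of 14 fibroblast markers, led by Col1a1, was 29682 to 32890 in WT 5dw and 31293 to 33197 in Act 5dw. Pdgfra, the gene of the sorting marker, was at 37.3, 34.4 and 35.9 RPKM in WT 5dw and at 34.0 and 29.6 RPKM in Act 5dw. Both Act values of Pdgfra were below the WT values as deposited, and they overlapped them after median-ratio scaling, a rescaling of each library by its typical gene. The mapped total behind the RPKM values, worked out from the values themselves, was 38740404 to 39702138 reads in WT 5dw and 20531292 to 25626301 in Act 5dw, so depth and genotype cannot be told apart in the wounds. Keratinocyte markers summed to 179, 363 and 1570 RPKM in WT 5dw and to 402 and 480 RPKM in Act 5dw, with WT replicate 3 far above the rest. Macrophage markers summed to 76.7 to 86.9 RPKM in WT 5dw and 69.9 to 71.5 RPKM in Act 5dw. T cell markers, nearly all from Cd3e, summed to 78.3 to 107 and to 59.98 to 61.2 RPKM, while Cd4, the only other T cell marker tested, was higher in both Act 5dw libraries (1.66 to 1.97 RPKM) than in WT 5dw (0.883 to 1.32 RPKM).

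Inhba itself, the gene to which the transgene corresponds, was at 20.6, 15.8 and 24.0 RPKM in the WT 5dw libraries and at 26.2 and 50.2 RPKM in the Act 5dw libraries. Both Act libraries lay above all WT libraries, but they were far apart from each other. The difference in log2(RPKM + 0.5), called log2FC from here on, was 0.86 with a standard error (SE) of 0.40 and a 95% confidence interval of -0.02 to 1.74. It did not pass the limma test after Benjamini-Hochberg adjustment over all tested genes. In NS the same gene was at 6.75, 6.93 and 3.40 RPKM in WT and at 36.3, 59.1 and 91.1 RPKM in Act mice. It was the 1 gene of 10240 (0.00977%) past an adjusted p of 0.05 in the unwounded comparison, with a log2FC of 3.30. The genotype effect on Inhba was 2.44 log2 units smaller in wounds than in NS (95% confidence interval of the difference -3.63 to -1.26, unadjusted p = 0.000774, adjusted p = 0.476, limma). Whether reads of the transgene were counted as Inhba was not tested. In bulk libraries, fewer cells of a type and less RNA per cell cannot be told apart, here and for each gene below.

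Of the other parts of the activin pathway, Inhbb, which encodes the βB subunit of activin B, was at 4.35, 4.55 and 5.52 RPKM in WT 5dw and at 2.43 and 3.21 RPKM in Act 5dw, with no overlap and a log2FC of -0.68 that did not pass the test. Of 3 tested activin receptors, Acvr1, a type I receptor, had both Act values (8.24 and 7.86 RPKM) below the WT values (8.60 to 9.10 RPKM). Of 3 tested antagonists, 0 had separate groups. Among 14 SMAD proteins and feedback regulators, the median log2FC was close to 0, and Smad3 was the 1 member above the WT values, with 0 below, at 5.11 to 5.76 RPKM in WT and 5.77 to 6.66 RPKM in Act 5dw. Without WT replicate 2 there were 3 above, and without WT replicate 1 there were 3 below. Of 12 TGF-β ligands, receptors and binding proteins, 1 was above and 1 below. Tgfb2, a ligand, was at 11.6 to 13.1 RPKM in WT and 13.7 to 13.8 RPKM in Act 5dw, and Tgfbr3, a co-receptor for TGF-β and inhibin, was at 39.4 to 42.2 RPKM in WT and 34.6 to 36.2 RPKM in Act 5dw. Of 21 BMP ligands, antagonists and targets, 1 was above (4 without WT replicate 2) and 1 below (3 without WT replicate 1). Bmpr1a, a type I receptor, was at 9.12 to 9.65 RPKM in WT and 9.84 to 10.4 RPKM in Act 5dw, and Id3, a target of BMP signaling, was at 38.4 to 49.1 RPKM in WT and 34.0 to 36.7 RPKM in Act 5dw. Of these pathway genes, 0 passed an adjusted or an unadjusted p of 0.05 with limma in the lists of subunits, receptors, antagonists, SMADs, TGF-β and BMP genes.

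Across all genes the genotypes differed little more than replicates did. Pearson's r of log2(RPKM + 0.5) over the tested genes was 0.983 to 0.987 between WT 5dw libraries, 0.98 between both Act 5dw libraries and 0.973 to 0.988 between genotypes. Between 108 and 173 genes were more than 2-fold apart in a pair of WT libraries and 124 to 278 in a pair of different genotype. With limma, 5 genes passed an adjusted p of 0.05 (0.0488% of those tested), 1 higher (0.00977%) and 4 lower (0.0391%) in Act 5dw. At an unadjusted p of 0.05, 365 genes passed (3.56%), of which 111 were higher (1.08%) and 254 lower (2.48%). That number was 229 without Act 5dw replicate 1, 585 without Act 5dw replicate 3 and 735 with only the 5 wound libraries fitted.

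The smaller values leaned to the Act side. Both Act libraries lay above all WT libraries in 727 genes (7.1%) and below them in 1647 genes (16.1%). Of these, 42 of the former met the filter through the Act libraries alone and 79 of the latter through the WT libraries alone, so that they had to differ. The median log2FC over all tested genes was -0.04, and 6256 of the 10240 were negative. After median-ratio scaling the split was 1151 above (11.2%) and 1096 below (10.7%), so the excess of lower genes depended on the scaling, and counts for gene lists are read against these shares. With 1 WT library fewer to pass, the counts were larger: 2195, 2506 and 2261 genes were below without WT replicate 1, 2 or 3, and 1309, 1178 and 1014 above.

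**Figure D1:**
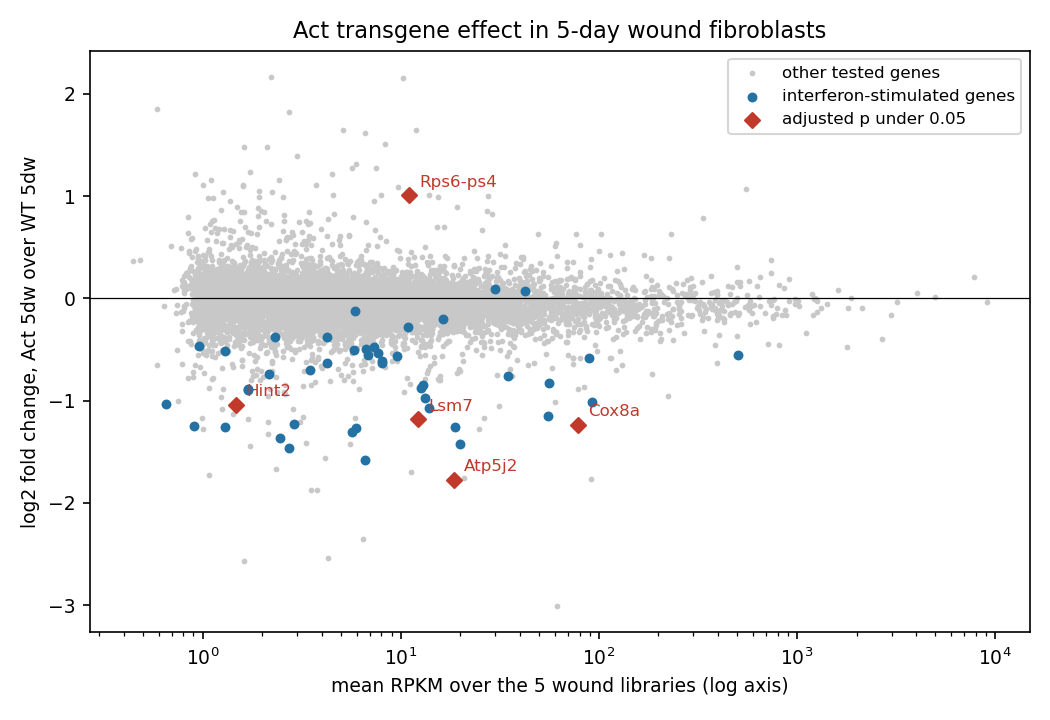
Each point is 1 of 10240 tested genes, with the mean RPKM of the 5 wound libraries on a log axis and the log2FC of Act over WT 5dw on the y axis. The 5 genes past an adjusted p of 0.05 are marked, and interferon-stimulated genes are colored, nearly all of them below 0.

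The 4 genes that fell encode small proteins of basic cell functions. Atp5j2 encodes the f subunit of the mitochondrial ATP synthase, Cox8a a subunit of cytochrome c oxidase, Lsm7 a protein of the LSm ring in RNA splicing and decay, and Hint2 a mitochondrial histidine triad hydrolase. The gene that rose, Rps6-ps4, is a processed pseudogene of the ribosomal protein gene Rps6.

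Atp5j2 (chromosome 5, 145183698 to 145192062, minus strand of GRCm38) was at 27.8, 25.2 and 24.97 RPKM in WT 5dw and at 7.16 and 7.32 RPKM in Act 5dw. The spread within each genotype was small beside the gap between them, with means of 25.98 ± 1.60 (SD, n = 3) and 7.24 ± 0.114 RPKM (SD, n = 2), a 3.59-fold difference. The log2FC was -1.77 (SE 0.16, 95% confidence interval -2.11 to -1.43, adjusted p = 0.00145, limma). In NS, WT mice had 7.86, 10.6 and 8.09 RPKM and Act mice had 6.31, 7.72 and 7.89 RPKM. The WT 5dw libraries were thus the high ones of the series, and the Act 5dw level lay within the NS range. The difference between the wound effect and the NS effect of the genotype was -1.52 log2 units (95% confidence interval -1.97 to -1.06, adjusted p = 0.0672, limma) and did not pass.

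Cox8a (chromosome 19, 7215153 to 7217616, minus strand) showed a like order of groups. It was at 99.3, 103 and 104 RPKM in WT 5dw and at 41.4 and 44.97 RPKM in Act 5dw, a 2.37-fold difference in means, and at 40.4 to 60.3 RPKM in the 6 NS libraries. The log2FC was -1.24 (SE 0.16, adjusted p = 0.0289, limma). Lsm7 (chromosome 10, 80852821 to 80855209, minus strand) was at 17.0, 17.0 and 13.4 RPKM in WT 5dw and at 6.76 and 6.59 RPKM in Act 5dw, with 4.82 to 8.71 RPKM in NS. Again the WT wound libraries stood above all others, and the log2FC was -1.18 (SE 0.16, adjusted p = 0.0319, limma). Of the 31-base sequences of Lsm7, 16.3% also occur in another gene.

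Hint2 (chromosome 4, 43654227 to 43656466, minus strand) had another order. It was at 1.83, 2.06 and 2.06 RPKM in WT 5dw and at 0.633 and 0.786 RPKM in Act 5dw, while the NS libraries held 1.44 to 2.09 RPKM. Here the Act wound libraries were the low ones of the series (log2FC -1.04, SE 0.15). Both Act values were under 1 RPKM, so Hint2 met the expression filter through the WT libraries alone and had to differ, and it was not called when no filter was applied. Rps6-ps4 (chromosome 2, 75191073 to 75191822, minus strand) was at 8.295, 7.02 and 7.73 RPKM in WT 5dw and at 15.7 and 16.2 RPKM in Act 5dw, against 7.36 to 10.0 RPKM in NS. Its log2FC was 1.01 (SE 0.14, adjusted p = 0.0319, limma). All of its 31-base sequences (100%) are shared with other genes, so its reads cannot be assigned to it with certainty.

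The calls were few enough to turn on single libraries. Atp5j2 passed in 10 of 10 other settings of the analysis and in 10 of 11 fits with 1 library left out, failing without Act 5dw replicate 1 (adjusted p = 0.0596, limma). Without that library 0 genes passed, and without WT 5dw replicate 1 the number was 10. Cox8a kept its call in 9 of 10 settings and 5 of the 11 fits, Lsm7 in 7 and 3, Rps6-ps4 in 6 and 4, and Hint2 in 3 of 9 settings and 2 fits.

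**Figure D2:**
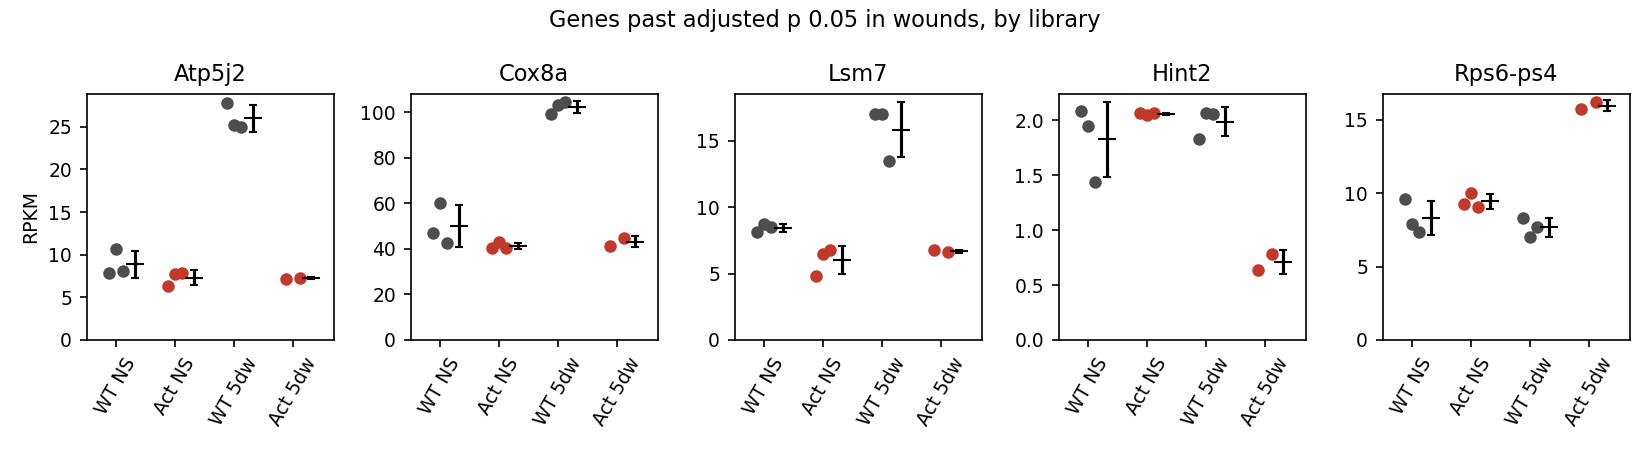
RPKM of the 5 genes past an adjusted p of 0.05 in each of the 11 libraries, by group, with bars at the group means. In Atp5j2, Cox8a and Lsm7 the 3 WT 5dw points stand above all others, in Hint2 the 2 Act 5dw points stand below, and in Rps6-ps4 they stand above.

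Among the gene lists with at least 8 tested members, interferon-stimulated genes had the largest share of members below the WT values, although 0 of its 43 tested members passed an adjusted p of 0.05 (lowest adjusted p = 0.115 for Usp18, limma) and 30 passed an unadjusted one. In 30 of the 43 (69.8%, against 16.1% of all genes) both Act libraries lay below all WT libraries, and in 0 of them above, and 27 stayed below after median-ratio scaling. Of the 30, 4 met the filter through the WT libraries alone. Of the members, 41 had a negative log2FC and 2 a positive one, Irf1 and Ifi27, with a median of -0.74 against -0.04 over all genes. The list was put together after values of these libraries had been seen, so its direction is no independent evidence. Type I and type II interferons induce these genes, and their products block viral replication or present antigen.

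Promoters were searched for a motif of interferon-stimulated genes, which part of the list shares. The core of the interferon-stimulated response element, searched as GAAANNGAAA on both strands of the 250 bases before the start site (RefSeq, GRCm38.p6), occurred in 821 of 27025 promoters (3.04%), and in 209 of 7600 tested genes with a promoter in that table (2.75%). It occurred in 18 of 35 interferon-stimulated genes (51.4%), namely in 12 of the 24 that lay below all WT values (50%) and in 6 of the 11 that overlapped (54.5%), so its presence did not set the separated members apart from the others. The stretches of 5 members that hold the motif are shown because these genes are described below and span the list from low to high expression. The capitals mark the motif, which reads as its reverse complement where it lies on the other strand, and overlapping matches are merged.
Rsad2 (chr12:26456538-26456597, minus strand): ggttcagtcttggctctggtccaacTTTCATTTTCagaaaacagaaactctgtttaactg
Igtp (chr11:58199497-58199555, plus strand): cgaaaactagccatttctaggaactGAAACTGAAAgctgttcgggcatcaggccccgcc
Ifit3 (chr19:34583348-34583441, plus strand): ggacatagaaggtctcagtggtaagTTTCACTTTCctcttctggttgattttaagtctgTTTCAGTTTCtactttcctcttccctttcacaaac
Bst2 (chr8:71537562-71537627, minus strand): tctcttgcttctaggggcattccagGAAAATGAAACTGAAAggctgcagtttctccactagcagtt
B2m (chr2:122147523-122147582, plus strand): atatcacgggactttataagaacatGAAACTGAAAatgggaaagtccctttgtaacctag

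Rsad2, which encodes the antiviral enzyme viperin, was at 4.67, 12.1 and 11.03 RPKM in WT 5dw and at 2.91 and 2.23 RPKM in Act 5dw. The Act values were below every WT value, with WT replicate 1 nearest to them (log2FC -1.58, SE 0.38, adjusted p = 0.406, limma). In NS the order of the genotypes was the other way, with 2.73, 6.76 and 3.71 RPKM in WT and 8.61, 7.34 and 6.39 RPKM in Act mice. The difference between wound and NS was -2.35 log2 units (95% confidence interval -3.47 to -1.22, adjusted p = 0.476, limma).

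Usp18 encodes a protease that removes ISG15 and damps the type I interferon receptor. It was at 5.56, 9.63 and 8.70 RPKM in WT 5dw and at 3.65 and 2.34 RPKM in Act 5dw (log2FC -1.27, SE 0.22, 95% confidence interval -1.75 to -0.78). Oas2, a sensor of double-stranded RNA, was at 2.18, 4.74 and 3.36 RPKM in WT and at 1.20 and 0.772 RPKM in Act 5dw (log2FC -1.36, adjusted p = 0.152, limma). In both genes the Act wound libraries were below all WT wound libraries and below all NS libraries, which held 8.94 to 11.3 RPKM of Usp18 and 2.48 to 3.73 RPKM of Oas2.

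Igtp, an interferon-γ-induced GTPase, was at 2.49, 2.81 and 6.34 RPKM in WT 5dw and at 0.915 and 1.04 RPKM in Act 5dw, a 3.96-fold difference in means that was widened by WT replicate 3 (log2FC -1.46, adjusted p = 0.178, limma). Ifit3, which binds foreign RNA with its relatives, was at 14.8, 37.9 and 28.3 RPKM in WT and at 10.6 and 7.74 RPKM in Act 5dw. It shares 61.8% of its 31-base sequences with other genes and its paralog Ifit3b shares 55.2%, so their levels are uncertain as separate values. The promoter stretches of both genes are also identical.

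Among the most abundant members, Bst2, encoding the surface protein tetherin, was at 88.9, 170 and 93.1 RPKM in WT 5dw and at 57.4 and 53.2 RPKM in Act 5dw (log2FC -1.01, SE 0.28, adjusted p = 0.572, limma). B2m, the light chain of MHC class I, was at 441, 761 and 541 RPKM in WT and at 388 and 384 RPKM in Act 5dw (log2FC -0.55, SE 0.24). Both had separate groups, and in both WT replicate 2 was far above the other WT replicates. Irf1, a transcription factor of the interferon-γ response, overlapped, at 35.7, 42.2 and 46.6 RPKM in WT and 47.1 and 40.1 RPKM in Act 5dw.

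The libraries of 1 genotype were not alike in these genes. The median of the 43 genes relative to the mean of the WT wounds was -0.50, 0.39 and 0.10 log2 units in WT 5dw replicates 1, 2 and 3 and -0.65 and -0.89 in Act 5dw replicates 1 and 3. WT replicate 1 was the lowest WT library in 41 of the 43 genes, and its median lay nearer to that of Act replicate 1 than to those of the other WT replicates. In NS the medians were 0.01, 0.47 and 0.04 in WT and 0.32, 0.68 and 0.19 in Act mice. The lowest libraries of the series were thus the Act wounds and WT wound replicate 1.

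In NS, 5 of the 43 genes had all Act libraries above all WT libraries (0.84% of all genes did), and the median log2FC of the list was 0.30. The effect of the genotype was lower in wounds than in NS in 41 of the 43. With limma, 31 of them passed an unadjusted p of 0.05 for this difference (3.32% of all genes did), and 0 passed an adjusted p, as in the whole table (0%). Without WT 5dw replicate 1, both Act libraries lay below the remaining WT libraries in 40 of 43, and 10 genes passed the wound comparison, 4 of them from this list (Cmpk2, Mx1, Oas2 and Usp18). Cmpk2 and Mx1 had met the filter through WT libraries alone. Without WT replicate 2 or 3 the number below was 31 or 30.

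Leukocytes also express many of these genes. The pan-leukocyte markers, 10 measured with a summed level of 13.3 to 13.7 RPKM in WT 5dw and 10.3 to 11.7 RPKM in Act 5dw, came mostly from Arhgdib. The macrophage and T cell sums given above were also lower in Act 5dw, the latter through Cd3e and not Cd4. None of the 10 pan-leukocyte, 11 macrophage and 10 T cell markers that were measured was at 0 in all 5 wound libraries, and their part in the interferon genes was not tested.

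**Figure D3:**
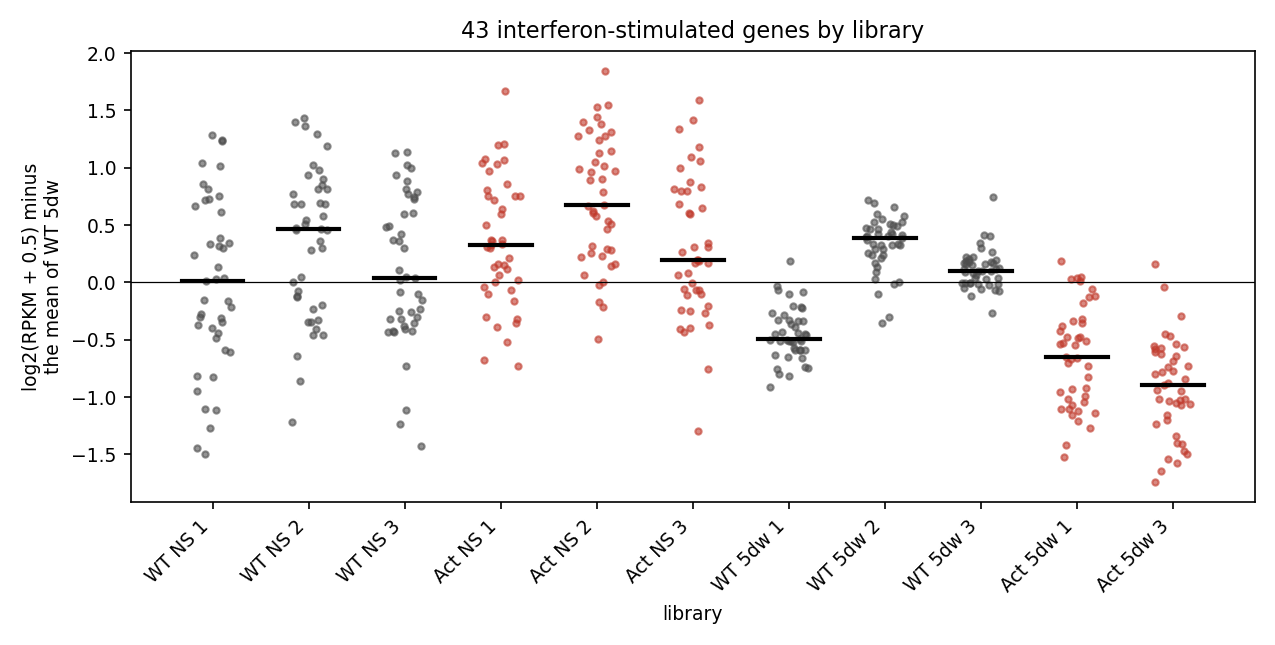
For each of the 11 libraries, points are the 43 interferon-stimulated genes as log2 difference from the mean of the WT 5dw libraries, with the median as a bar. The Act 5dw medians are -0.65 and -0.89, WT 5dw replicate 1 lies at -0.50, and the Act NS medians are above 0.

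Other inflammatory lists are read against the 16.1% of all genes below and 7.1% above. Among 11 CXC chemokines, 3 (27.3%) lay below all WT values and 0 above, with a median log2FC of -0.31, and 7 lay below without WT replicate 1. The median against the WT mean was -0.27 and -0.19 in the Act libraries, and -0.19 in WT replicate 1 as well. Cxcl12, the stromal chemokine that retains leukocytes and progenitors, was at 75.5, 91.7 and 88.6 RPKM in WT 5dw and at 59.3 and 54.1 RPKM in Act 5dw, with no overlap (log2FC -0.58, SE 0.13, adjusted p = 0.395, limma). The NS libraries were at 46.8 to 54.4 RPKM. Ppbp, a neutrophil-attracting chemokine, was at 2.48 to 4.20 RPKM in WT and 1.98 to 2.11 RPKM in Act 5dw. Of 6 CC chemokines 2 (33.3%) were below. Ccl19, a ligand of CCR7, was at 2.35, 2.26 and 2.29 RPKM in WT 5dw and at 1.01 and 1.35 RPKM in Act 5dw. It was at 27.95 to 55.3 RPKM in NS, which puts the Act wounds farthest from unwounded skin. Ccl19 shares 58.8% of its 31-base sequences with other genes, so its level is uncertain.

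Il1rap, the shared accessory chain of the IL-1 receptor family, was at 3.05, 2.98 and 2.93 RPKM in WT 5dw and at 2.002 and 2.16 RPKM in Act 5dw, and the groups were apart (log2FC -0.43, SE 0.12, adjusted p = 0.537, limma). C4a, a complement component, was at 2.43 to 3.16 RPKM in WT and 1.12 to 1.66 RPKM in Act 5dw, and it shares 43.3% of its 31-base sequences with other genes. Slpi, an inhibitor of leukocyte proteases, was at 10.95, 10.8 and 16.6 RPKM in WT and at 4.33 and 9.29 RPKM in Act 5dw, with the Act replicates more than 2-fold apart. Among 13 acute-phase and antimicrobial genes the median log2FC was -0.34, yet 1 of them was below all WT values. The median against the WT mean was -0.83 in Act replicate 1 and 0.13 in Act replicate 3, and -0.18, -0.10 and 0.32 in the WT replicates, so Act replicate 1 alone set the negative value. Of 18 complement genes, 4 (22.2%) were below, 7 without WT replicate 1, and 1 above, and of 18 IL-6 and IL-1 family genes 4 (22.2%) were below and 0 above (3 without WT replicate 2).

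No matrix gene passed the adjusted test. The study links 19 genes, matrix-related ones and Inhba itself, to activin in wound fibroblasts. It chose most of them on these libraries, so their direction here is not independent evidence. With edgeR, a test on read counts, the study reported significant activin-regulated genes, Inhba among them. It described Aspn and Postn as strongly regulated in wounds. Apart from these libraries, it reported that activin induced Aspn, Postn and other genes of the list in cultured fibroblasts. It also reported SMAD binding at the Aspn and Postn promoters and more asporin, periostin and fibronectin staining in Act wounds. Both Act libraries lay above all WT libraries in 7 of the 19 (36.8%, against 7.1% of all genes) and below in 0, and 7 lay above after median-ratio scaling. Inhba is 1 of the 7. The log2FC was positive in 18, with a median of 0.14 in wounds and -0.01 in NS, but in 9 of the 19 the sign turned under some alternative setting or without some library. With limma 0 passed an adjusted p and 1, Aspn, an unadjusted one.

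Aspn encodes asporin, a small leucine-rich proteoglycan that binds collagen. It was at 203, 174 and 190 RPKM in WT 5dw and at 345 and 248 RPKM in Act 5dw, and the Act replicates were farther from each other than the nearest Act and WT libraries were (log2FC 0.63, SE 0.20, 95% confidence interval 0.20 to 1.07, adjusted p = 0.82, limma). Postn, which encodes the matricellular protein periostin, was at 696, 664 and 635 RPKM in WT and at 887 and 832 RPKM in Act 5dw. Here both groups were tight and apart, with means of 665 ± 30.7 (SD, n = 3) and 860 ± 38.6 RPKM (SD, n = 2), a 1.29-fold difference (log2FC 0.37, SE 0.21). In NS Postn was at 233 to 302 RPKM in WT and at 157 to 251 RPKM in Act mice. C1qtnf3, a secreted C1q-like protein, was at 98.2, 62.6 and 93.2 RPKM in WT and at 151 and 110 RPKM in Act 5dw (log2FC 0.63, SE 0.29).

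The fibrillar collagens carried small differences at high levels. Col3a1, the chain of type III collagen, was at 7846, 7335 and 7015 RPKM in WT 5dw and at 8652 and 8423 RPKM in Act 5dw (log2FC 0.21, SE 0.22). Col5a2, a chain of type V collagen, was at 594, 482 and 562 RPKM in WT and at 609 and 619 RPKM in Act 5dw. Col1a1, a chain of type I collagen, was at 10032, 8091 and 9354 RPKM in WT and at 7761 and 10277 RPKM in Act 5dw, where the Act replicates bracketed the WT ones (log2FC -0.03). Fn1, fibronectin, was at 463, 498 and 459 RPKM in WT and at 527 and 528 RPKM in Act 5dw. The remaining 11 genes of the list overlapped, among them Lox, the collagen cross-linking oxidase, at 423 to 517 RPKM in WT and 463 to 522 RPKM in Act 5dw. Among 9 tested fibrillar chains 2 were above and 0 below, and among 29 enzymes of collagen processing and cross-linking 0 were above (3 without WT replicate 3) and 2 below (5 without WT replicate 2), with a median log2FC of -0.09. The median of these enzymes against the WT mean was -0.22 in Act replicate 1 and 0.07 in Act replicate 3. P3h1, a prolyl hydroxylase of collagen, was at 53.2 to 60.4 RPKM in WT and 40.4 to 50.0 RPKM in Act 5dw.

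Of 16 tested basement membrane genes, 4 (25%) had both Act values below the WT values and 0 above. Col4a1 and Col4a2 encode the main chains of type IV collagen and are transcribed from a shared promoter. Col4a1 was at 58.1, 66.1 and 80.0 RPKM in WT 5dw and at 35.6 and 49.2 RPKM in Act 5dw (log2FC -0.68, SE 0.20, adjusted p = 0.626, limma). Col4a2 was at 37.5, 41.9 and 51.6 RPKM in WT and at 20.96 and 30.8 RPKM in Act 5dw (log2FC -0.76, SE 0.23, adjusted p = 0.724, limma). Both genes were highest in WT replicate 3, the library high in keratinocyte markers, and lowest in Act replicate 1. In NS they were higher than in any wound library, with 184 to 250 RPKM of Col4a1 and 81.5 to 130 RPKM of Col4a2. Col18a1, the chain that gives rise to endostatin, was at 16.9 to 20.6 RPKM in WT and 12.2 to 15.6 RPKM in Act 5dw.

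**Figure D4:**
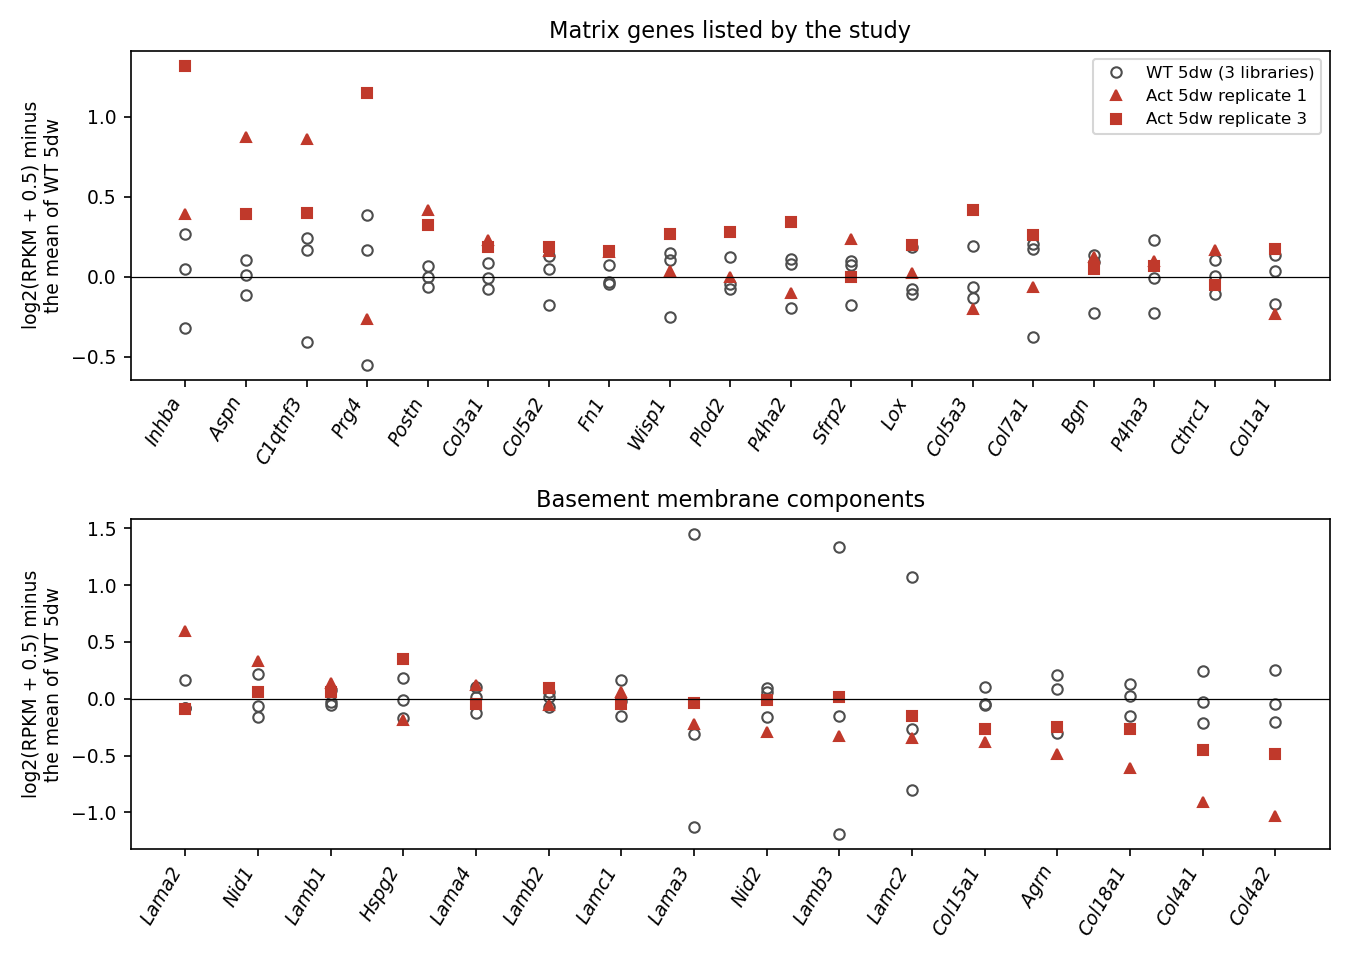
Difference in log2(RPKM + 0.5) from the WT 5dw mean for the 19 genes, Inhba among them, that the study links to activin (top) and for 16 basement membrane genes (bottom), with WT libraries as open circles and Act replicates 1 and 3 as triangles and squares. In 7 of the 19 both Act points lie above all WT points, and in 4 of the 16 (Col4a1, Col4a2, Col18a1 and Col15a1) below them.

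Of 21 matricellular genes, 2 were above and 2 below, and without WT replicate 2 these counts were 4 and 5. Wisp2 (also called Ccn5) was at 75.7, 75.3 and 74.7 RPKM in WT 5dw and at 33.0 and 41.7 RPKM in Act 5dw, a 2.02-fold difference between tight groups. It did not pass (log2FC -1.01, SE 0.33, adjusted p = 0.877, limma), and its NS libraries, which enter the same estimate of error, spread from 28.8 to 87.0 RPKM. Cemip, a hyaluronan-degrading protein, was at 2.43 to 2.96 RPKM in WT and 1.30 to 2.24 RPKM in Act 5dw. Of 31 contractile genes, 2 were above (4 without WT replicate 1) and 0 below (6 without WT replicate 2). Acta2, the smooth muscle actin of myofibroblasts, overlapped at 148 to 261 RPKM in WT and 122 to 220 RPKM in Act 5dw.

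Wif1, a secreted Wnt inhibitor, was at 0.592, 0.872 and 0.414 RPKM in WT 5dw and at 5.88 and 3.38 RPKM in Act 5dw. The NS libraries had 8.89 to 28.2 RPKM. Corin, a protease gene of the dermal papilla, was near 0 in WT wounds, at 0.0191 to 0.0373 RPKM in WT 5dw, 1.80 and 1.07 RPKM in Act 5dw and 0.58 to 13.5 RPKM in NS. Wif1 and Corin met the expression filter through the Act libraries alone and had to differ, so their values are given without a test. Angptl1, an angiopoietin-like factor, was at 14.2, 14.2 and 13.4 RPKM in WT 5dw and at 32.5 and 21.4 RPKM in Act 5dw (log2FC 0.90, SE 0.24, adjusted p = 0.537, limma). Its NS values (26.1 to 43.1 RPKM) were above the WT wounds and overlapped the Act wounds.

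Other genes were low in unwounded skin. Ptn, the growth factor pleiotrophin, was at 20.9, 28.4 and 17.6 RPKM in WT 5dw and at 39.5 and 38.8 RPKM in Act 5dw, against 3.12 to 9.85 RPKM in NS. H19, an imprinted noncoding RNA, was at 236, 309 and 237 RPKM in WT and at 432 and 459 RPKM in Act 5dw, against 6.04 to 12.5 RPKM in NS (log2FC 0.78, SE 0.26, adjusted p = 0.885, limma). In both genes the Act wounds were the highest libraries of the series. Of 10 genes of the insulin-like growth factor axis, 3 lay above all WT values (5 without WT replicate 3) and 1 below. Igf1 was at 16.0 to 17.6 RPKM in WT and 19.2 to 23.5 RPKM in Act 5dw, and Igf2r, the scavenging receptor, at 23.7 to 27.9 and 29.4 to 30.9 RPKM. Igf2 shares 61.9% of its 31-base sequences with other genes and was at 1.58 to 2.38 RPKM in WT and 2.56 to 3.15 RPKM in Act 5dw.

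Several lineage and receptor genes were lower in Act wounds. Ngfr, the p75 neurotrophin receptor, was at 11.7, 6.61 and 11.1 RPKM in WT 5dw and at 1.41 and 1.51 RPKM in Act 5dw, a 6.71-fold difference in means, but its NS libraries ran from 1.96 to 40.5 RPKM and the log2FC of -2.35 had an SE of 0.89. Crabp1, a retinoic acid-binding protein, was at 119, 69.6 and 99.8 RPKM in WT and at 45.3 and 56.9 RPKM in Act 5dw (log2FC -0.88, SE 0.31, adjusted p = 0.982, limma). Twist2, a transcription factor of dermal mesenchyme, was at 13.2 to 14.3 RPKM in WT and 7.84 to 11.5 RPKM in Act 5dw. Thy1, the surface marker CD90, was at 168 to 199 RPKM in WT and 134 to 138 RPKM in Act 5dw. All 4 were separate between the genotypes and did not pass the test. Among 18 dermal lineage markers 3 were above (5 without WT replicate 2) and 4 below, so the list as such had no single direction.

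Proliferation genes were mostly negative by small amounts. Of 40 cell cycle and DNA replication genes, 39 had a negative log2FC, 9 (22.5%) had both Act libraries below all WT libraries and 0 above, and the median was -0.22, against 0.05 in NS. After scaling 7 stayed below, and without WT 5dw replicate 2 the number was 27, so that library decided much of the count. Against the WT mean, the median of the list was -0.31 and -0.13 in the Act libraries and 0.25, -0.22 and -0.03 in the WT ones, so WT replicate 2 lay between the Act libraries. With limma 0 passed an adjusted or an unadjusted p of 0.05. Plk1, a mitotic kinase, was at 4.59, 3.74 and 3.48 RPKM in WT 5dw and at 2.17 and 3.35 RPKM in Act 5dw. Birc5, which encodes survivin, was at 3.04 to 4.11 RPKM in WT and 2.28 to 2.63 RPKM in Act 5dw. Pcna, the sliding clamp of replication, was at 23.5 to 24.9 RPKM in WT and 20.9 to 22.3 RPKM in Act 5dw.

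Both called subunits Atp5j2 and Cox8a belong to the nuclear-encoded genes of oxidative phosphorylation. Of 81 tested genes of that list, 28 (34.6%) lay below all WT values and 0 above. The number below was 21 after scaling and 45 without WT 5dw replicate 2, and 5 lay above without WT replicate 1. Their median log2FC was -0.12 in wounds and -0.19 in NS, so apart from the called pair most differences were small. Uqcrq, a subunit of complex III, was at 14.4, 13.97 and 14.3 RPKM in WT and at 9.31 and 12.0 RPKM in Act 5dw (log2FC -0.41, SE 0.18). The 13 mitochondrially encoded genes held 1 above and 1 below (4 without WT replicate 1): mt-Nd3 was at 110 to 171 RPKM in WT and 178 to 219 RPKM in Act 5dw, and mt-Atp6 at 2655 to 3312 and 2193 to 2295 RPKM.

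Of 24 Sm and LSm spliceosome genes, the list of Lsm7, 6 (25%) were below and 1 above, with a median of -0.10. Snrpc, a protein of the U1 particle, was at 3.29 to 3.72 RPKM in WT and 2.27 to 2.85 RPKM in Act 5dw. Of 82 cytosolic ribosomal protein genes, 12 were below and 2 above as deposited, 22 below without WT replicate 2 and 9 above without WT replicate 1, but 5 below and 10 above after scaling, so this list had no direction of its own. Rpl27 was at 16.1, 17.6 and 15.9 RPKM in WT and at 8.66 and 12.1 RPKM in Act 5dw, whereas Rpl21 was at 27.7 to 31.8 RPKM in WT and 34.8 to 44.9 RPKM in Act 5dw.

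Amino acid synthesis genes under ATF4 had 8 of 18 members (44.4%) below all WT values, and 4 after scaling. The median of the list against the WT mean was -0.41 in Act replicate 1 and -0.06 in Act replicate 3, beside -0.0381 to -0.0094 in WT. Asns, asparagine synthetase, was at 8.16, 8.16 and 8.295 RPKM in WT 5dw and at 5.49 and 6.41 RPKM in Act 5dw (log2FC -0.44, SE 0.21). Phgdh, the entry enzyme of serine synthesis, was at 5.39 to 7.41 RPKM in WT and 3.72 to 4.98 RPKM in Act 5dw. Atf4 itself was at 198, 232 and 216 RPKM in WT and at 178 and 193 RPKM in Act 5dw, which overlapped after scaling. Of 30 cholesterol and fatty acid genes 4 were below (18 without WT replicate 2) and 0 above, with Hmgcs1, an early enzyme of the mevalonate pathway, at 32.1 to 44.1 RPKM in WT and 18.6 to 24.5 RPKM in Act 5dw. Of 27 genes of oxidative stress defence 6 were below (10 without WT replicate 1) and 0 above, with Fth1, the ferritin heavy chain, at 746 to 845 and 516 to 658 RPKM. Of 31 glycolysis and hypoxia genes, 2 were above (5 without WT replicate 3 and 4 after scaling) and 0 below, with a median of 0.01, and the median against the WT mean was -0.25 in Act replicate 1 and 0.26 in Act replicate 3.

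**Figure D5:**
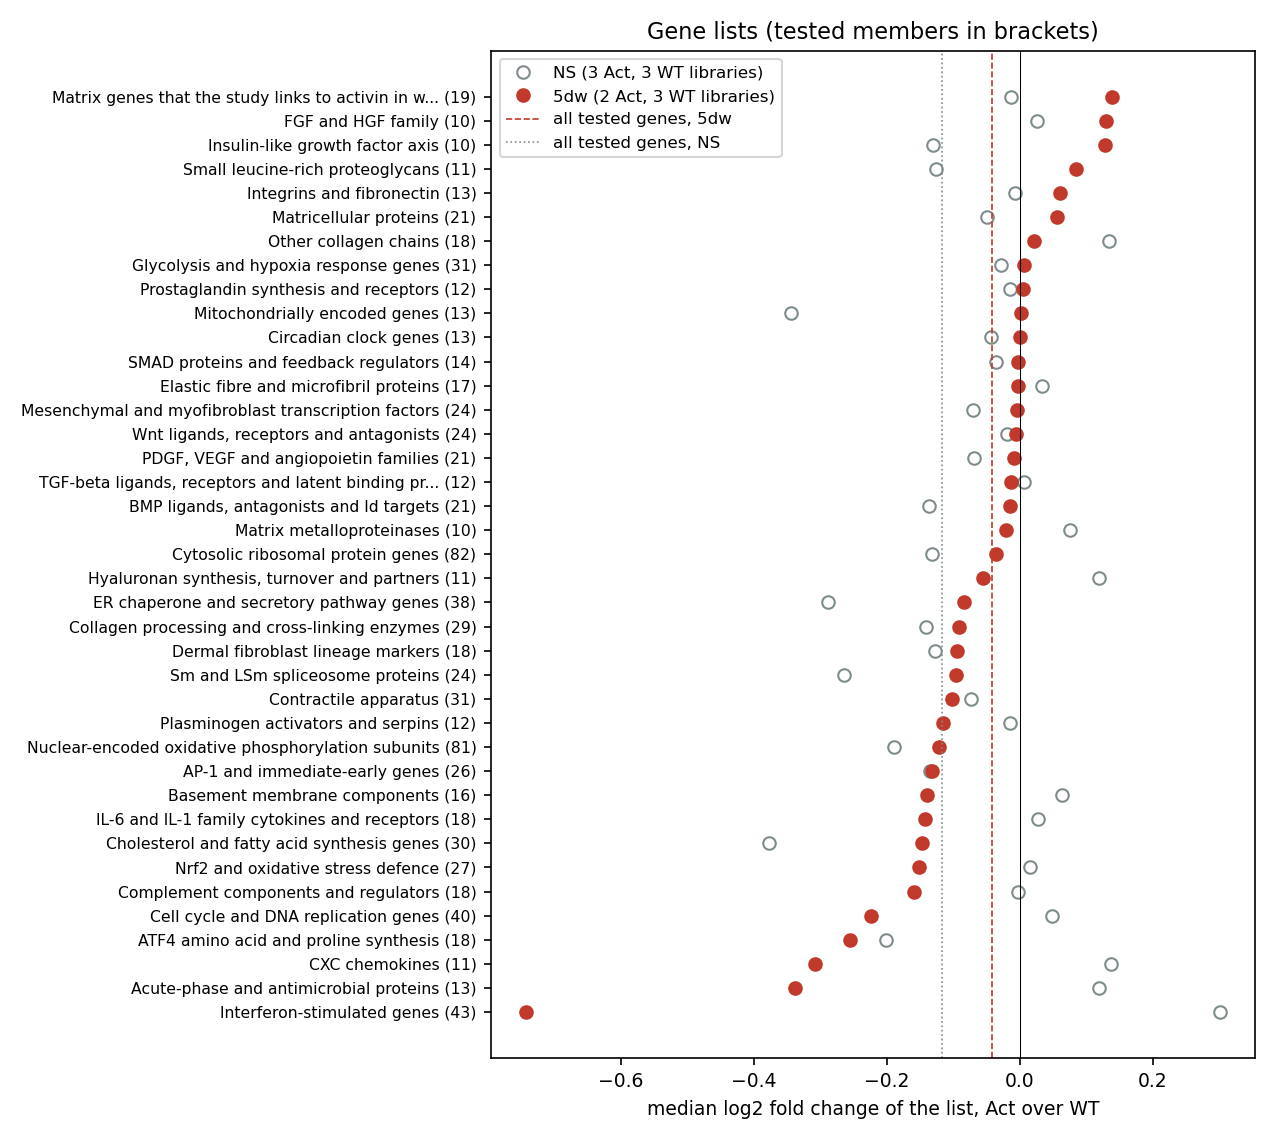
Median log2FC of Act over WT for each gene list with at least 10 tested members, cell type markers left out, in 5dw (filled points, 2 Act and 3 WT libraries) and in NS (open points, 3 and 3), with lines at the medians over all tested genes (-0.04 in 5dw). Interferon-stimulated genes lie farthest to the left in 5dw at -0.74 and farthest to the right in NS at 0.30, and the matrix genes of the study lie farthest to the right in 5dw at 0.14.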

How the data were processed

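The authors sequenced poly-A RNA, mapped reads to GRCm38 in CLC Genomics Workbench 12 and deposited RPKM values for 47643 gene symbols. Their edgeR test takes counts and was not repeated. The sources used here do not say how reads with several matches were counted. Genes with at least 1 RPKM in at least 2 of the 5 wound libraries were tested as log2(RPKM + 0.5) with limma-trend (limma 3.58.1, R 4.3.3), with 1 mean per group over 11 libraries (7 residual degrees of freedom, median prior 4.36), two-sided, with Benjamini-Hochberg adjustment over 10240 genes. A fold change on this scale understates that of low genes. Mapped totals were worked out from the whole reads implied by RPKM and exon length (78.2% to 79.5% of values under 200 reads were whole within 0.03). These totals were used for limma-voom. Coordinates and lengths came from GENCODE M21, in which 45699 symbols matched, and promoters from RefSeq.

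Members, the 58 gene lists and tests were chosen with earlier results of these data known. Lists are described by counts and medians, without a test. Named genes were those past the adjusted p, the 8 highest and 8 lowest log2FC without overlap (unadjusted p under 0.05, mean of at least 5 RPKM, no pseudogenes), up to 3 of smallest p and 2 of highest level in each list, the 19 genes that the study links to activin, and checks. Irf1, Ifi27, Cmpk2, Mx1, Tgfb2 and Bmpr1a were named after their values were seen. The fit was tested on simulated data. Alternatives were other pseudocounts, filters, scalings, fits and left-out libraries, and after the data were seen the overlap counts after scaling or without a WT library.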

Additional observations from a re-analysis of the deposited data

How the results depend on the processing

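The number of genes past an adjusted p of 0.05 between Act and WT 5dw, 5 in the main setting, was 17 of 24230 without a filter on low values (11 higher, 6 lower, 4 of the 5 among them), 2 with median-ratio scaling (both lower), 11 with quantile normalization (7 higher, 4 lower, all 5 among them), 2 with limma-voom, and 0 to 10 when a library was left out. For the difference between the wound and NS effects, 0 in the main setting, it was 10 without a filter, 1 with the stricter filter, 1 with quantile normalization and 0 to 2 with a library left out. For Act against WT NS, 1 in the main setting, it was 3 without a filter and 0 to 2 with a library left out. As a replicate block, libraries of the same number gave 4 calls (2 higher, 2 lower), of which Atp5j2 and Cox8a were shared with the main setting and Rpl5-ps1 and Wif1 were not. Deviations of same-numbered libraries correlated at -0.092 and 0.21 in 5dw and at 0.31 to 0.5 in NS. The 5dw values cannot decide whether the numbers pair the wound libraries. With 2 Act libraries, their deviations from the group mean are mirror images of each other. Over 2078 alternative fits of 100 of the named genes, the direction of the log2FC stayed the same in 2059, and it turned in 12 genes, none of them called. These 100 do not include all genes that met the naming rule. Others also turned with a library left out, such as Dcn (-0.13 to 0.13) and C3 (-0.34 to 0.19). Col1a1 was at 0.0136 with median-ratio scaling, and with the replicate block Col7a1 was at -0.017, P4ha2 at -0.00147 and Bgn at -0.0069. With a library left out, the log2FC was -0.23 to 0.17 for Col1a1, -0.20 to 0.42 for Col5a3, -0.091 to 0.26 for Col7a1, -0.10 to 0.34 for P4ha2, -0.0306 to 0.20 for P4ha3, -0.0029 to 0.28 for Plod2, -0.0536 to 0.17 for Cthrc1, -0.0297 to 0.15 for Bgn, -0.26 to 1.15 for Prg4, -0.71 to 0.14 for Acta2, -0.0397 to 0.19 for Irf1 and -0.0818 to 0.19 for Ifi27. The number of genes at an unadjusted p of 0.05 between Act and WT 5dw, 365 in the main setting, was 1109 without a filter, 169 with the stricter filter, 569 with quantile normalization and 553 with the replicate block. The median of the interferon-stimulated genes was -1.06 to -0.56 over the alternatives.

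The comparison rests on 2 Act wound libraries against 3 of WT. By the totals worked out from RPKM, Act wounds were sequenced to about the depth of NS and less than WT wounds. Low genes such as Hint2 and Corin rest on few reads.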

Other observations

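Further gene lists held these counts in wounds. Of 7 EGF family genes, 3 had both Act libraries below all WT libraries, but 0 after median-ratio scaling. Of 10 FGF and HGF family genes 2 were above and 0 below, and of 38 genes for ER chaperones and secretion 3 were above and 8 below as deposited, with 2 below after scaling and 13 without WT replicate 2. Of 26 immediate-early genes, which respond to cell dissociation, 1 was above and 1 below, but 7 below without WT replicate 1. Elastic fibre genes (17 tested) and metalloproteinase inhibitors (4 tested) had 0 on either side. In the lists described here and above, other counts with a WT library left out differed by at most 2 genes, or by no more than 1.5 times, from those given.

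Processed pseudogenes stood apart from other genes, an observation made after the values were seen. Of 191 tested, 61 (31.9%) had both Act libraries above all WT libraries and 24 (12.6%) below, against 7.1% and 16.1% of all genes, and the median log2FC was 0.22 in wounds and -0.06 in NS. The counts after scaling were 64 and 21. Genes with at least 90% of their 31-base sequences shared with other genes, 191 as well, had 57 above and 21 below. Of the genes above, 12 of the pseudogenes and 13 of the shared genes met the expression filter through the Act libraries alone and had to differ. Rps12l1, 1 of them, fully shared, was at 0.505, 0.259 and 0.517 RPKM in WT 5dw and at 1.83 and 1.47 RPKM in Act 5dw. Rps27rt, which shares 92.7% of its sequence, was at 5.65 to 7.08 RPKM in WT and 12.2 to 16.9 RPKM in Act 5dw. How such reads were divided between copies is not known, and its part in these values was not tested.

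The share of genes below all WT values differed with gene length, over 10 bins of equal size. It was 19.9% in the shortest bin (148 to 1552 bases of exon), 22.3% at 2317 to 2958 bases and 8.37% in the longest (from 9713 bases). The share above was 11.2% in the shortest bin, 4.63% in the next and then rose, with 1 small step back, to 9.94% in the longest. With GC content the share above was 8.85% in the lowest bin and 2.26% in the highest, while the share below was 8.75% in the lowest bin, 20.4% in the seventh and 14% in the highest.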
